A study of Mus musculus with 8 samples.

Results

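The cells described are mouse pre-B cells that carry an empty vector. They were derived from bone marrow of C57BL/6 mice lacking Arf (Arf-/-), the tumour suppressor made from an alternative reading frame of Cdkn2a, and were sorted as GFP+ before RNA extraction. The series holds 8 RNA-seq libraries in 4 groups of 2. In the other groups the same Arf-/- cells carry ZNF384-HA or its fusions, one with TAF15 (TAF15-ZNF384-HA) and one with TCF3 (TCF3-ZNF384-HA), where ZNF384 is a zinc finger transcription factor that is fused to other genes in some B cell leukaemias and HA is an epitope tag. Only the 2 empty vector libraries (replicates 1 and 2) are described here, across all 32499 genes in the count table, and no contrast with the other groups was made. The Arf deletion is shared by all groups, so the levels below are those of Arf-/- cells, and Arf wild-type cells were not analysed here. The labels do not say whether the libraries came from separate cultures, so the spread between them may be technical.

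A pre-B cell has rearranged its immunoglobulin heavy chain gene and carries the pre-B cell receptor (pre-BCR). That receptor pairs the heavy chain with a surrogate light chain, made of λ5 (Igll1) and VpreB (Vpreb1, Vpreb2), and signals through CD79A and CD79B. Signals from the pre-BCR and from the IL-7 receptor drive division of large pre-B cells. Light chain rearrangement by the RAG recombinase takes place in small resting pre-B cells. In normal cells Arf restrains MDM2, the ubiquitin ligase that degrades p53.

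Levels are given in TPM, a unit of transcript abundance computed from the deposited counts: each gene's count was divided by the length of its exons and scaled so that the coding genes of each library sum to the same total. TPM allows genes to be compared with each other, and ranks run from 1 for the highest mean TPM among 21405 coding genes with a length. A coding gene is called expressed where it reached 1 TPM in both libraries, which at the median exon length of 2822 bases takes about 27.6 counts in replicate 1. By this rule 9963 of 21405 coding genes, 46.5%, were expressed. Counts of expressed list members below are to be read beside that share. Gene positions are in NCBIM37 (mm9), from GENCODE. A count of 0 in a library allows up to 3 counts, so a gene without counts was not detectable at this depth. Unless another scale is named, pairs of values are the TPM of replicates 1 and 2.

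The libraries held 28469291 and 29072409 counts. Coding genes took 69.0% of the counts in replicate 1 and 63.3% in replicate 2. The 5 most abundant non-coding genes took 27.2% and 33.2%. They were Gm26917 (4817173 and 6710588 counts), Rpph1, the RNA of RNase P (1501276 and 1745327), Rmrp, the RNA of RNase MRP (947066 and 847081), Gm42418 (292598 and 215234) and AY036118 (192089 and 141855). The 13 mitochondrial genes were listed at 0 in both libraries, and none is read as absent from the cells. The labels give no sex: the Y-linked genes Eif2s3y, Ddx3y, Kdm5d and Uty had 1191 and 1175, 785 and 865, 696 and 698 and 359 and 369 counts, and Xist had 64 and 42.

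Some of the genes at the head of the ranking are near copies of each other, and their sequences show how near. The pair of VpreB genes shares bases upstream of the start. The 250 bases before each RefSeq start were slid against each other without gaps, and the best match is shown. The matched stretches therefore lie at different distances from the 2 starts. These stretches of 106 bases (NCBIM37, the mm9 build) are identical in 98.1% of positions, with the 2 that differ in capitals:
Vpreb1 (chr16:16869349-16869454, minus strand): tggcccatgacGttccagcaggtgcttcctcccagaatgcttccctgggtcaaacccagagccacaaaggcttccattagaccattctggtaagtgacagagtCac
Vpreb2 (chr16:17980408-17980513, plus strand): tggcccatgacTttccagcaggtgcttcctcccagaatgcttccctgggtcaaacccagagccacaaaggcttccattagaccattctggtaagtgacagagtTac
The histone H4 genes make the same protein from slightly different codons. Shown are the first 120 coding bases of the highest 2 genes of the whole ranking, with the 13 positions that differ in capitals. Over all 312 coding bases the genes differ at 16 positions and are 94.9% identical:
Hist1h4h (chr13:23622984-23623103, plus strand): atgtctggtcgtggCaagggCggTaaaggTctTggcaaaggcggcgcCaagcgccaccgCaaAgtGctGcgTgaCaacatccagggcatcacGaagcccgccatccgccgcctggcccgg
Hist1h4f (chr13:23643393-23643512, minus strand): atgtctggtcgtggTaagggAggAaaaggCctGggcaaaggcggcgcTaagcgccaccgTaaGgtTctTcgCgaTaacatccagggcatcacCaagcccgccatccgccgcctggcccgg
Sharing of this kind bears on how reads are split between genes. In Vpreb1, 42.6% of all 50-base windows of the coding sequence occur letter for letter in another coding gene, and the same share holds for Vpreb2. The share was 72.6% in Hist1h4h, 50.6% in Hist1h4f and 100% in Hist1h4m and Hist1h4n. For Igll1, Cd79a, Cd79b, Vpreb3, Pax5, Cd24a and Cdkn2a it was 0. Genes not classed as coding, such as most pseudogenes, and exon bases outside the coding sequence were not searched. Levels of single histone genes and the split between Vpreb1 and Vpreb2 are therefore uncertain.

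Coding transcripts were concentrated in few genes. The 86 genes at 1000 TPM or more held 52.7% of all coding TPM, and the 100 highest held 54.0%. A further 1173 genes between 100 and 1000 TPM held 27.6%. The 5297 genes between 10 and 100 TPM held 17.9% and the 3550 between 1 and 10 TPM held 1.73%. Below that, 5584 genes had counts but a mean under 1 TPM, and 5715 (26.7%) had no count in either library. The median expressed gene had a mean of 17.7 TPM, with quartiles of 7.07 and 48.0 TPM. The share of the highest 100 rests on the length correction: in CPM, which scales counts to a common total with no division by length, it was 22.7%. Genes at the top were short, with a median of 667 exon bases for the 100 highest against 3588 for all expressed genes.

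**Figure D1:**
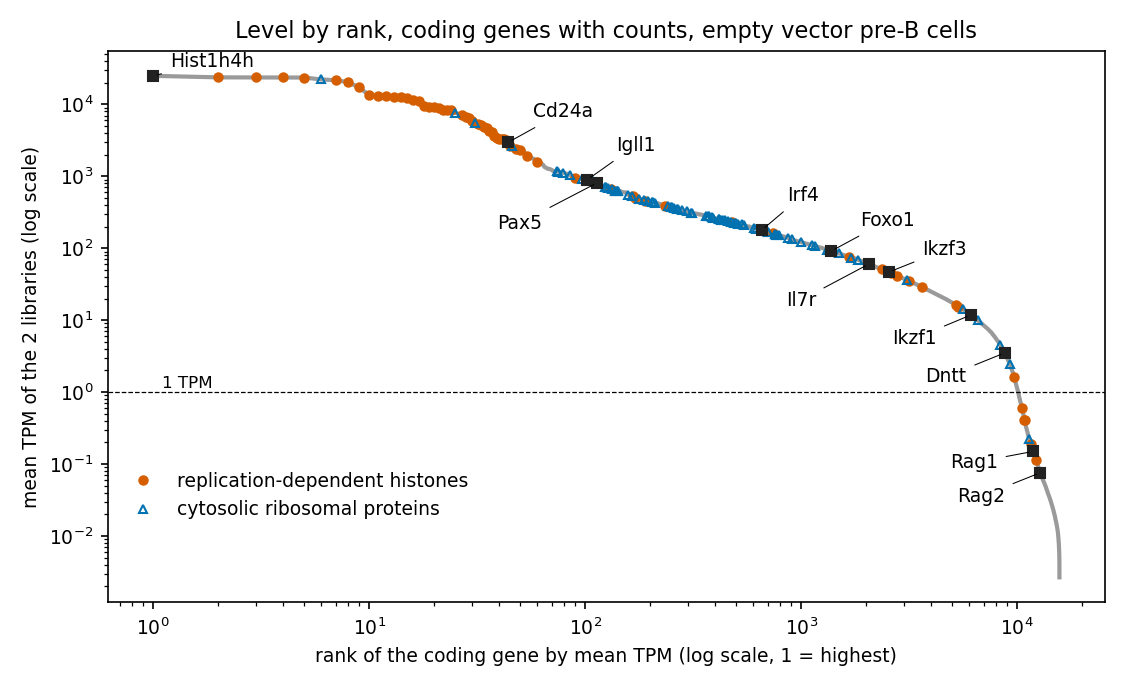
Mean TPM of the 2 empty vector libraries (vertical, log scale) against rank (horizontal, log scale) for coding genes with counts; circles are replication-dependent histones, triangles cytosolic ribosomal proteins, squares the genes named. Histones fill most of the first 45 ranks, Igll1 and Pax5 sit near rank 100 and Rag1 and Rag2 below the dashed line at 1 TPM.

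Replication-dependent histones led the ranking. These genes package newly made DNA, are transcribed in S phase and, unlike other coding genes, give messages that end in a stem-loop and not in a poly(A) tail. The libraries were made from total RNA. Of 67 histone genes with a level, 61 were expressed, and together they held 42.7% and 43.5% of coding TPM. All 69 histone genes in the table, including those without a level, held 8.26% and 7.70% of all counts. Of the 10 highest genes 9 were histones, and of the highest 45, 40 were. Left out of the scaling, they leave a share of 25.6% in the 100 highest of the other genes.

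By family, the 13 H4 genes held 15.4% and 15.3% of coding TPM, the 18 H2B genes 11.8% and 12.1%, and the 11 H3 genes 8.06% and 8.53%. The 19 H2A genes held 3.86% and 4.03%, and the 6 linker histone H1 genes 3.61% and 3.49%. The order H4, H2B, H3, H2A, H1 was the same in both libraries, and no neighbours in it overlapped. That order rests on the annotated exon lengths. The highest single gene was Hist1h4h (chr13:23622919-23623388), at 24915 and 25019 TPM (24967 ± 73.6 SD, n = 2, rank 1). Hist1h2bn, an H2B gene, measured 23577 and 23857 TPM (23717 ± 198 SD, n = 2, rank 4). The annotated exons of Hist1h2bn, at 381 bases, are no longer than its coding sequence, and the same holds for Hist1h4k at 312 bases. The TPM and rank of both rest on those lengths, which the SD does not cover. Hist1h1a, the highest linker histone by TPM, measured 17288 and 17169 TPM (17228 ± 84.6 SD, n = 2, rank 9). Hist1h1d had more counts than Hist1h1a, at 157580 and 145963 against 126303 and 117227. With an annotated exon length of 3821 bases, against 747 for Hist1h1a, Hist1h1d came to 4217 and 4179 TPM (rank 37). The 5 highest genes, Hist1h4h, Hist1h4f, Hist1h4d, Hist1h2bn and Hist1h2bb, lie between 23624 and 24967 mean TPM. Hist1h4f, Hist1h4d, Hist1h2bn and Hist1h2bb overlap between libraries, so their order is not resolved. The other histones among the 20 highest genes were Hist1h4k, Hist1h4c, Hist1h2bg, Hist1h3e, Hist1h4n, Hist1h2bk, Hist1h3c, Hist1h3a, Hist1h1b, Hist1h2bj, Hist1h3f, Hist1h3i and Hist1h3b, from 21676 down to 9105 mean TPM. Across the family, exact 50-base windows are shared over more than 50% of the coding sequence in 50 of the 67 genes, and in none of the 6 H1 genes.

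Among the 20 highest coding genes all but Rplp1 were histones. Rplp1, a stalk protein of the large ribosomal subunit, measured 22410.3 and 22108 TPM (22259 ± 214 SD, n = 2, rank 6). Outside the replication-dependent histones and the ribosomal proteins, the highest gene was Cd24a, a glycosylphosphatidylinositol-anchored surface glycoprotein of developing B cells, at 3068 and 2861 TPM (2964 ± 146 SD, n = 2, rank 44). H2afx, a histone variant that is phosphorylated at DNA breaks, followed at 2508 and 2559 TPM (2534 ± 35.8 SD, n = 2, rank 47). Shfm1, which encodes a small subunit of the proteasome, came next at 2422 and 2224 TPM (2323 ± 140.0 SD, n = 2, rank 49). Further down, the cytosolic chaperone Hsp90ab1 measured 2040.1 and 1812 TPM (1926 ± 161 SD, n = 2, rank 55). Slc16a1, the monocarboxylate transporter MCT1, measured 1825 and 1843 TPM (1834 ± 12.2 SD, n = 2, rank 56). Myl10, a myosin light chain gene, stood at 1725 and 1765 TPM (rank 58).

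All measured pre-BCR components were expressed, and by TPM they ranked close together: 5 of 6 stood among the 100 highest coding genes and the sixth at rank 102. All 6 have exon lengths under the median of 2822 bases, and in CPM, with no length correction, none of the 6 was among the 100 highest: Igll1 ranked 117, Cd79a 136, Cd79b 173, Vpreb1 221, Vpreb3 458 and Vpreb2 520. Cd79a, a signalling chain of the receptor, measured 1250.2 and 1124 TPM (1187 ± 89.2 SD, n = 2, rank 71). Its partner Cd79b measured 1018 and 1009 TPM (1013 ± 6.66 SD, n = 2, rank 86). The surrogate light chain genes Vpreb1 and Vpreb2 measured 1140.3 and 1144 TPM (1142 ± 2.62 SD, n = 2, rank 78) and 964 and 941 TPM (952 ± 16.5 SD, n = 2, rank 91). Vpreb3, which binds immunoglobulin chains inside the cell, measured 922 and 939 TPM (931 ± 12.5 SD, n = 2, rank 96). Igll1 (chr16:16860764-16864078), the λ5 chain and 1 of 4 markers checked for the label, measured 870.3 and 909.6 TPM (890.0 ± 27.8 SD, n = 2, rank 102). Cd79a overlapped Vpreb1, so their order is not resolved. From Vpreb1 down, the other genes kept their order in both libraries, although Vpreb2 and Vpreb3 were nearly equal in replicate 2. The immunoglobulin constant region genes Ighm, Ighd, Igkc and Iglc1 to Iglc3 were not analysed here.

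The 150 bases upstream of the Igll1 start are shown because this gene marks the stage. They come from RefSeq's promoter table and were placed in mm9 by an exact match. Capitals mark CANNTG, the E-box core bound by E proteins such as TCF3, which reads the same on both strands:
Igll1 (chr16:16864079-16864228, minus strand): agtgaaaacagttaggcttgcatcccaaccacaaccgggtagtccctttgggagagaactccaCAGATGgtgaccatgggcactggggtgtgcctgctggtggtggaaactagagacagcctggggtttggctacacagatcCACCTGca
The window holds 2 matches, whose first bases lie 87 and 8 bases upstream of the start. A match is common: 44.4% of all 21405 coding genes have at least 1 in the 150 bases before their annotated start. The match says nothing of whether a factor binds there.

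Downstream of the pre-BCR, 21 of 24 signalling genes were expressed, with a median member at 20.4 TPM. Plcg2, the phospholipase that turns receptor signals into calcium release, measured 614 and 584 TPM (599 ± 21.2 SD, n = 2, rank 153). Among the Src family kinases, Blk measured 454 and 461 TPM (458 ± 5.53 SD, n = 2, rank 191), and Fyn 19.4 and 21.6 TPM (rank 4553). Lyn, another Src kinase of B cells, had only 3 and 11 counts, 0.0753 and 0.295 TPM. Blk was thus the leading Src kinase of the list, and Lyn was near the limit of detection. Dok3, an adaptor that dampens receptor signals, measured 145 and 153 TPM (rank 800). Zap70, the kinase known from T cells, measured 86.2 and 84.6 TPM (rank 1480), and its relative Syk 10.1 and 10.5 TPM (rank 6479), so that Zap70 stood above Syk in both libraries. Btk measured 41.5 and 37.4 TPM (rank 2883) and the adaptor Blnk, which links Syk to Btk and Plcg2, 17.6 and 19.6 TPM (rank 4816). Under 1 TPM besides Lyn were Rasgrp3 (19 and 28 counts) and Lcp2 (2 and 4 counts). Cd22, an inhibitory receptor that rises with maturation, was low at 4.17 and 6.08 TPM (rank 8132).

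**Figure D2:**
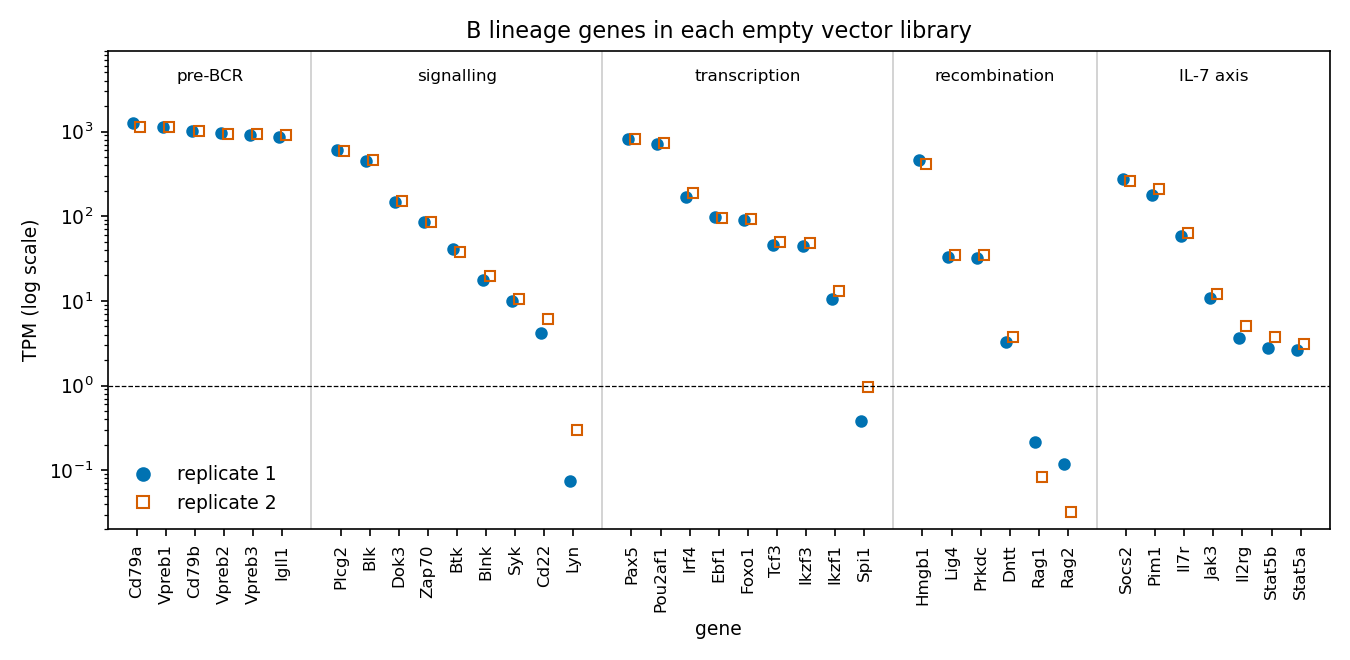
TPM (log scale) of pre-BCR, signalling, transcription factor, recombination and IL-7 axis genes in replicate 1 (filled circles) and replicate 2 (open squares); the dashed line is 1 TPM. The pre-BCR genes cluster near 1000 TPM, while Lyn, Spi1, Rag1 and Rag2 lie under 1 TPM in both libraries.

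Transcription factors of the B lineage were expressed in 33 of 37 cases, with a median member at 46.6 TPM. Pax5, the factor that holds B cell commitment, was the highest at 819.6 and 813 TPM (816 ± 4.89 SD, n = 2, rank 114). Pou2af1, a co-activator of octamer factors, measured 713 and 742 TPM (728 ± 20.2 SD, n = 2, rank 121). The ETS factors Fli1 and Ets1 measured 416 and 398 TPM (rank 226) and 213 and 202 TPM (rank 546). Irf4 (chr13:30841095-30858796), a checked marker that acts in pre-BCR signalling and light chain opening, measured 169 and 189 TPM (179 ± 13.9 SD, n = 2, rank 657). Sox4, needed early in the lineage, measured 168 and 184 TPM (rank 666).

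Lower in the list stood several factors that define the lineage. Ebf1, which acts with TCF3 and PAX5, measured 97.4 and 94.5 TPM (95.9 ± 2.05 SD, n = 2, rank 1311). Foxo1 (chr3:52072259-52154031), a marker checked for the label and an activator of the Rag genes, measured 90.6 and 92.4 TPM (91.5 ± 1.25 SD, n = 2, rank 1379). Tcf3, the E protein also fused to ZNF384 in one of the other groups, measured 45.5 and 49.2 TPM (rank 2512). Ikzf3 (chr11:98326216-98407345), which encodes Aiolos and is the last of the 4 markers, measured 45.1 and 48.1 TPM (46.6 ± 2.13 SD, n = 2, rank 2543), and its relative Ikzf1, which encodes Ikaros, 10.5 and 13.1 TPM (rank 6104). Ikzf3 stood far above Ikzf1 in both libraries. Ebf1 was above Foxo1 in both libraries by little, and Tcf3 and Ikzf3 overlapped. Ranks of long messages depend on the length correction: in CPM, without it, Ebf1 ranked 369 and Ikzf3 1100.

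All 4 markers given for the cells, Igll1, Irf4, Foxo1 and Ikzf3, were therefore expressed in both libraries. The factors under 1 TPM in a library were Spi1, which encodes PU.1, at 0.379 and 0.974 TPM (10 and 24 counts), Erg at 5 and 3 counts, Ikzf2 at 6 and 1, and Bcl11a at 5 and 0. Spib, the relative of Spi1, measured 49.7 and 52.4 TPM (rank 2355). Gfi1 had 539 and 586 counts and no TPM, since the annotation used does not class it as a coding gene.

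E proteins and their Id inhibitors were measured as a small family of 7 genes, 6 of them expressed. Among the inhibitors, which bind E proteins and keep them off DNA, Id2 measured 76.8 and 114 TPM (95.5 ± 26.4 SD, n = 2, rank 1316) and Id3 71.1 and 81.9 TPM (76.5 ± 7.66 SD, n = 2, rank 1659). Among the E proteins Tcf3 was above Tcf12 (21.8 and 24.4 TPM, rank 4212) and Tcf4 (6.74 and 7.81 TPM, rank 7401), in both libraries and without overlap. Id1 measured 2.56 and 3.4 TPM (rank 8984), and Id4 had 5 and 2 counts. Id2 varied more between libraries than the E proteins did, with 954 and 1325 counts.

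The recombination machinery divided into general repair genes, which were expressed, and lymphoid recombinase genes, which were near 0. Of 14 genes, 12 were expressed. Hmgb1, a DNA-bending cofactor of the recombinase with many other roles, measured 460.2 and 416 TPM (rank 208). The end-joining genes Xrcc5, Xrcc6, Lig4 and Prkdc had means of 123, 65.6, 34.3 and 33.6 TPM. Dntt, the terminal transferase of pro-B cells, measured 3.32 and 3.7 TPM (rank 8760), on 69 and 72 counts. Rag1 had 14 and 5 counts, 0.217 and 0.0828 TPM (rank 11860). Rag2 had 4 and 1 counts, 0.119 and 0.032 TPM (rank 12800). Both Rag genes were below Dntt in both libraries, and they were the only 2 members of the list that were not expressed.

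In the IL-7 receptor axis 18 of 20 genes were expressed. The receptor chain Il7r measured 57.8 and 63.1 TPM (60.4 ± 3.8 SD, n = 2, rank 2060), and the shared cytokine chain Il2rg 3.64 and 5 TPM (rank 8421). Crlf2, the partner of IL-7Rα in the receptor for TSLP, measured 31.1 and 36.5 TPM (rank 3247). Of the kinases, Jak1 measured 111 and 109 TPM (rank 1124) and Jak3 11 and 12 TPM (rank 6185). Stat5a and Stat5b, the factors they activate, measured 2.64 and 3.07 TPM (rank 9042) and 2.77 and 3.77 TPM (rank 8852). Genes known as targets of this pathway were among the highest of the list: Socs2, a feedback inhibitor, at 277 and 261 TPM (rank 386), and the survival kinases Pim1 and Pim2 at 177 and 210.5 TPM (rank 595) and 172 and 153 TPM (rank 727). Cish, another feedback inhibitor, was lower at 11.5 and 9.75 TPM (rank 6396). The growth factor receptors of earlier stages were at the bottom, with Flt3 at 57 and 71 counts (0.944 and 1.26 TPM) and Kit at 1 and 0.

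Of 27 surface molecules of B lineage cells, 24 were expressed, and 11 stood among the 1000 highest coding genes. Cd93, known as AA4.1 on immature B cells, measured 527 and 501 TPM (514 ± 17.9 SD, n = 2, rank 169). Enpep, the aminopeptidase BP-1 of late pro-B and pre-B cells, measured 271 and 270.1 TPM (270.4 ± 0.307 SD, n = 2, rank 384). Spn, which encodes CD43, measured 254 and 236 TPM (245 ± 12.5 SD, n = 2, rank 440). Cxcr4, which holds precursors in the marrow, measured 201 and 227 TPM (rank 533), and Ly6d 194 and 212 TPM (rank 556). The members under 1 TPM were Cd180 (19 and 25 counts), Cd44 (17 and 11) and Ly86 (0 and 1).

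Genes of mature B and plasma cells were expressed in 6 of 15 cases, against 46.5% of all coding genes. Tnfrsf13b, which encodes the receptor TACI, was the highest at 48.1 and 44.7 TPM (rank 2550). Sdc1, the plasma cell marker CD138 that pre-B cells can also carry, measured 18 and 20.7 TPM (rank 4728). Tnfrsf13c, Xbp1, Jchain and Cxcr5 had means of 9.1, 8.04, 4.24 and 3.36 TPM. Ms4a1, which encodes CD20, and Fcer2a, which encodes CD23, had no count in either library. Also under 1 TPM were Cd40 (18 and 22 counts), Prdm1 (15 and 19), Cr2 (10 and 12), Cd80 (4 and 4), Tnfrsf17 (3 and 3) and Cd86 (0 and 1).

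MHC genes split by class. All 10 class I pathway genes with a level were expressed, led by H2-D1 at 1097 and 1190.1 TPM (rank 77), B2m at 327 and 408 TPM (rank 255) and H2-K1 at 238 and 343 TPM (rank 350). Of 10 class II genes, 3 were: H2-Ob at 39 and 43.6 TPM (rank 2799), H2-Oa at 15.6 and 14.7 TPM (rank 5412) and H2-Ab1 at 5.1 and 5.19 TPM (rank 8119). H2-Oa and H2-Ob form H2-O, which restrains peptide loading. Cd74, the invariant chain, measured 0.653 and 1.09 TPM. Ciita, the master activator of the class, had 1 and 0 counts, H2-Aa 2 and 3, H2-Eb1 1 and 8, H2-DMa 2 and 6, H2-DMb1 0 and 3, and H2-DMb2 9 and 10. The H2-O pair was thus above every other class II gene measured, in both libraries.

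**Figure D3:**
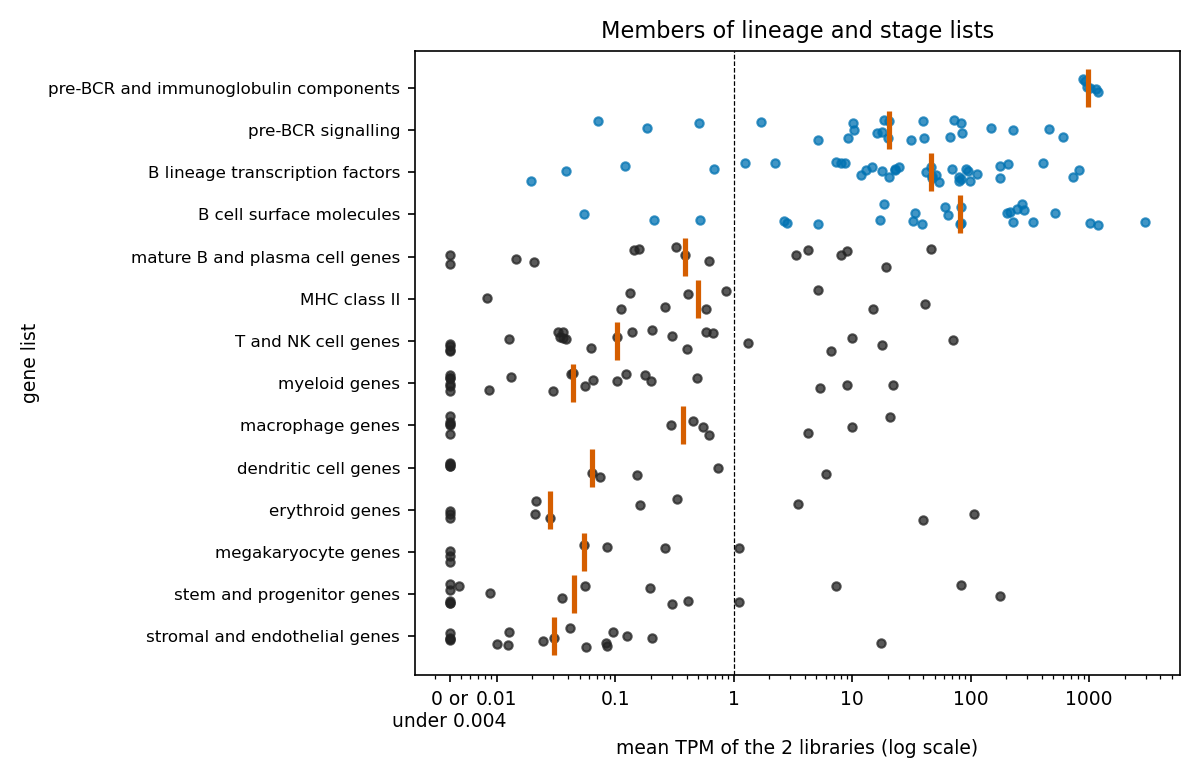
Mean TPM of the 2 libraries (log scale) for each member of 14 lineage and stage lists; each point is a gene, the orange bar the list's median, the dashed line 1 TPM, and points at the left edge had no or almost no counts. The median member is above 1 TPM in the 4 upper lists (blue) and under 1 TPM in the 10 others (dark). The median over all coding genes is 0.468 TPM, also under 1 TPM, and MHC class II lies above it at 0.500 TPM.

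Markers of other blood and marrow cells were mostly at or near 0. In bulk RNA, few cells of a type and little RNA per cell cannot be told apart. Of 23 T and NK cell genes 5 were expressed: Thy1 at 74.6 and 67.6 TPM (rank 1790), Lck at 16.9 and 19.1 TPM (rank 4919), Bcl11b at 9.85 and 10.2 TPM (rank 6552), Cd28 at 5.16 and 8.06 TPM (rank 7631) and Cd3d at 1.16 and 1.49 TPM (rank 9852). The defining genes of T cells beyond these were low, with Cd3e at 0 and 1 counts, Cd4 at 1 and 0, Cd8b1 at 1 and 0, and Cd3g, Cd8a and Gata3 without counts. The rest under 1 TPM were Cd5 (11 and 15 counts), Tcf7 (14 and 17), Tbx21 (6 and 8), Cd247 (4 and 10), Gzma (1 and 6), Klrd1 (3 and 2), Prf1 (2 and 2), Klrb1c (2 and 0), Nkg7 (0 and 1), Gzmb (1 and 0) and Ncr1 (1 and 0), and Eomes had no count.

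Of 21 myeloid genes 3 were expressed: Csf2ra at 20.8 and 23.7 TPM (rank 4315), Cebpb at 7.07 and 10.9 TPM (rank 6837) and Ly6g, on 16 and 18 counts, at 4.87 and 5.86 TPM (rank 8047). The granule genes S100a8, S100a9, Camp, Ltf, Ctsg and Lyz1 had no count. Prtn3 (6 and 10 counts), Lyz2 (3 and 2), Cebpa (7 and 2), Mpo (4 and 4), Fcgr1 (1 and 4), Cd14 (2 and 0), Elane (1 and 0), Cebpe (0 and 1), Ngp (1 and 0), Csf1r (2 and 1), Csf3r (0 and 1) and Itgam (0 and 1) each had 10 or fewer counts. Of 12 macrophage genes Apoe (19.3 and 22.7 TPM, rank 4482), Cd68 (9.19 and 10.7 TPM, rank 6567) and Ctss (3.31 and 5.16 TPM, rank 8458) were expressed. The complement genes C1qa, C1qb and C1qc had 7 and 4, 11 and 2, and 9 and 2 counts, Mrc1 had 24 and 27, and Adgre1, Cd163, Marco, Msr1 and Vsig4 none. Of 9 dendritic cell genes Bst2 alone was expressed, at 4.55 and 7.45 TPM (rank 7831). Batf3, Ccr9, Zbtb46 and Itgax had 5 and 5, 1 and 8, 5 and 7, and 4 and 1 counts, and Cd209a, Clec9a, Siglech and Xcr1 none.

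Of 11 erythroid genes 3 were expressed. Tfrc, the transferrin receptor that dividing cells in general carry, measured 98.6 and 113 TPM (rank 1180), Car2 39.6 and 39.9 TPM (rank 2867) and Klf1 3.33 and 3.64 TPM (rank 8767). Hba-a1 and Hba-a2 had 1 and 4, and 0 and 2 counts, Epor, Slc4a1 and Gata1 1 or 0 in each library, and Alas2 and Car1 none. No megakaryocyte gene of 7 reached 1 TPM in both libraries. Itga2b came nearest at 0.956 and 1.26 TPM, Gp9 had 2 and 2 counts, Treml1 1 and 1, Gp1bb 2 and 0, and Pf4 and Ppbp none. Of 17 stromal and endothelial genes Pecam1, which blood cells also carry, was expressed at 16.6 and 18.4 TPM (rank 5008). The highest of the other 16 by mean TPM was Col1a1, at 4 and 21 counts, and Dcn, Emcn, Lum and Tek had none. Vcam1 and Kdr had 11 and 1 counts each, Fbln1 5 and 3, Lepr 3 and 8, Col3a1 4 and 5, Cdh5 0 and 3, Acta2 0 and 1, Pdgfra 0 and 3, Col1a2 3 and 0, Cxcl12 2 and 0, and Pdgfrb 0 and 1.

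Of 16 stem and progenitor genes, Sox4, Myb (73.6 and 91 TPM, rank 1536) and Lmo2 (6.51 and 7.98 TPM, rank 7408) were expressed. The stem cell genes Cd34, Gata2, Hoxa9 and Procr, and also Cd27, had no count. Tal1 had 15 and 19 counts, Slamf1 5 and 14, Ly6a 1 and 2, Hlf 7 and 0, Meis1 3 and 2, and Mecom 1 and 0. The 9 lists of mature B, T and NK, myeloid, macrophage, dendritic, erythroid, megakaryocyte, stem and stromal genes each had a median under 1 TPM. The median over all coding genes was also under 1 TPM, at 0.468 TPM. Mature B and macrophage genes stood close to it, with medians of 0.390 and 0.375 TPM.

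The p53 axis was examined because all groups lack Arf. Of 26 genes 23 were expressed. Cdkn2a (chr4:88920377-88940557), the locus of Arf, had 1528 and 1499 counts and measured 134 and 140.2 TPM (137 ± 4.69 SD, n = 2, rank 882). Its rank was 2628 in CPM, with no length correction, and 791 with the longest transcript as length. This gene-level count sums the products of a locus that also encodes Ink4a, so it is no check of the Arf deletion, and the files do not show which exons the reads came from. Trp53, which encodes p53, measured 20.5 and 17.5 TPM (19 ± 2.09 SD, n = 2, rank 4770), and Mdm2, both its target and its ligase, 20.6 and 23.5 TPM (22 ± 2 SD, n = 2, rank 4348). Mdm4, a relative of Mdm2 that binds p53, measured 253 and 247 TPM (249.8 ± 4.28 SD, n = 2, rank 428), above Mdm2 in both libraries.

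Genes known as p53 targets were present at varied levels. Ccng1 was the highest at 390.3 and 400.5 TPM (395 ± 7.17 SD, n = 2, rank 233). Bax, a pore-forming death protein, measured 114 and 121 TPM (rank 1039), Bbc3, which encodes PUMA, 57.1 and 59.9 TPM (rank 2117), and Pmaip1, which encodes NOXA, 24.2 and 35.1 TPM (rank 3550). Cdkn1a, the p21 inhibitor of cyclin-dependent kinases, measured 40.1 and 46.5 TPM (rank 2686). Among other inhibitors Cdkn1b stood at 100.2 and 109.9 TPM (rank 1193), Cdkn2c at 35.1 and 29.7 TPM (rank 3347) and Cdkn2b at 8.59 and 11.1 TPM (rank 6605). At the bottom of the list were Perp with no count, Eda2r with 19 and 27 and Cdkn2d with 18 and 9. In the BCL2 family 12 of 18 genes were expressed, and Mcl1, a survival protein, led at 333 and 346 TPM (rank 278). Bcl2 measured 63.8 and 57.6 TPM (rank 2048) and Bcl2l1, which encodes BCL-XL, 5.38 and 5.62 TPM (rank 7992), while Bcl2a1a, Bcl2a1b, Bcl2a1d and Bik had no count.

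Division genes were high at the median of their lists. All 34 DNA replication genes and all 22 mitosis genes were expressed, with median members at 61.6 and 36.2 TPM. The median was 17.7 TPM over expressed genes and 0.468 TPM over all coding genes. Mcm2, a subunit of the replicative helicase, measured 652 and 617 TPM (635 ± 25.4 SD, n = 2, rank 138). Mki67, the proliferation marker Ki-67, measured 807 and 760.2 TPM (784 ± 33 SD, n = 2, rank 116), and the mitotic motor Kif11 660.4 and 644 TPM (652 ± 11.7 SD, n = 2, rank 134). The lowest replication gene, Orc1, still measured 3.89 and 5.45 TPM (rank 8300), and the lowest mitosis gene, Tpx2, 9.95 and 9.26 TPM (rank 6662).

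Of 13 cyclins and CDKs 11 were expressed. Cdk6, which D-type cyclins activate, measured 996 and 885 TPM (941 ± 78.7 SD, n = 2, rank 94), and its relative Cdk4 48 and 44.4 TPM (rank 2562). Cdk6 was therefore far above Cdk4 in both libraries. Ccnd2 measured 346 and 302 TPM (324 ± 31.4 SD, n = 2, rank 297) and Ccnd3, the D cyclin tied to pre-BCR-driven division, 164 and 151 TPM (157 ± 9.1 SD, n = 2, rank 760). Ccnd1 had 32 and 17 counts, under 1 TPM in both libraries. The D cyclins thus stood in the order Ccnd2, Ccnd3, Ccnd1 in both libraries. Ccna1 had no count, while Ccna2 measured 254 and 237 TPM (rank 437).

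Growth genes followed. Of 85 cytosolic ribosomal proteins 82 were expressed, with a median member at 278 TPM and a sum of 72917 TPM in replicate 1 and 62993 in replicate 2. Many have processed pseudogenes, so single values are uncertain: 79.9% of the 50-base coding windows of Rps3a1 and 60.8% of those of Rplp1 occur in another coding gene model. All 19 translation factors were expressed, led by Eef1a1 at 1634 and 1377 TPM (rank 62) and Eif3f at 963 and 899 TPM (rank 95). All 23 ribosome biogenesis genes were too, led by the methyltransferase Nop2 at 274 and 279.6 TPM (rank 374) and nucleolin (Ncl) at 244 and 226 TPM (rank 463). So were all 29 chaperones, where the chaperonin subunits Cct6a and Cct5 measured 945 and 952 TPM (rank 93) and 801 and 773 TPM (rank 115), and 76 of 77 mitochondrial ribosomal proteins.

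In the MYC network 14 of 15 genes were expressed. Myc measured 84.4 and 78.6 TPM (81.5 ± 4.16 SD, n = 2, rank 1554) and Mycn 74.5 and 86 TPM (80.2 ± 8.2 SD, n = 2, rank 1577). Their values overlapped, so neither was resolved as higher. Max, their partner, had a mean of 18.8 TPM, and Mxd4, which competes for Max, was the highest of the network at 258 and 241 TPM (rank 431). Mycl had 22 and 44 counts.

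In glycolysis and glucose transport 20 of 30 genes were expressed, and the 10 others, several of them isoforms known from other tissues, were under 1 TPM in a library. Slc16a1 apart, the highest was Pkm, pyruvate kinase, at 355 and 367 TPM (rank 260). The glucose transporter Slc2a1 measured 14.7 and 20.7 TPM (rank 4976) and Slc2a3 3.75 and 3.9 TPM (rank 8626). Ldha measured 53.5 and 66.1 TPM (rank 2079) and Ldhb had 3 and 4 counts. Hk2 stood above Hk1, at 47.5 and 42.9 TPM (rank 2613) and 12.7 and 11.9 TPM (rank 5979). Gapdh measured 161 and 137 TPM (rank 799), with a rank between 545 and 1359 over the length settings, and it has many pseudogenes. Of 86 nuclear genes of oxidative phosphorylation 81 were expressed, with a median member at 49.3 TPM.

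Genes of the amino acid stress response, which ATF4 activates, were expressed in 18 of 19 cases. Ddit4, an inhibitor of mTORC1, measured 974 and 1133 TPM (1053 ± 112 SD, n = 2, rank 84). The amino acid transporter Slc7a5 measured 599.6 and 599.9 TPM (rank 150), Phgdh, the entry enzyme of serine synthesis, 477 and 477 TPM (rank 183), and asparagine synthetase (Asns) 223 and 218 TPM (rank 507). Atf4 measured 55.8 and 73.2 TPM (rank 1946) and Slc7a11, the cystine transporter, had 3 and 2 counts. All 20 cholesterol and fatty acid synthesis genes with a level were expressed, led by Insig1, a sterol sensor, at 476 and 595 TPM (rank 163) and fatty acid synthase (Fasn) at 346 and 378 TPM (rank 259).

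Among 27 integrins, homing and chemokine receptors 14 were expressed, 51.9%, which is close to the 46.5% of all coding genes. Ccr7, the receptor for lymph node chemokines, was the highest at 285 and 300.5 TPM (293 ± 11.2 SD, n = 2, rank 345). The sphingosine phosphate receptor S1pr4 measured 282 and 289.8 TPM (286 ± 5.29 SD, n = 2, rank 360), while S1pr1 had 8 and 8 counts. Selplg, the ligand of selectins, measured 147 and 157 TPM (rank 783), Itgb1 38.9 and 38.4 TPM (rank 2934) and Itga4 15.3 and 13.5 TPM (rank 5568). At the bottom were Itgam, Itga1, Itgae and Itga2, each with 2 or fewer counts in a library.

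Of 15 NF-kB genes 14 were expressed, and the inhibitor Nfkbia, itself a target of the pathway, measured 580.3 and 688 TPM (rank 139). Among the subunits Rel measured 77.1 and 81 TPM (rank 1600), and Rela, Nfkb1 and Relb had means of 12, 15.1 and 5.5 TPM. Of 19 interferon regulatory factor and response genes 13 were expressed, and below Irf4 the highest was Irf1 at 30.8 and 43 TPM (rank 3035). The response genes Mx1, Oas1a and Ifit1 had 1 and 1, 0 and 2, and 12 and 7 counts. Of 24 chromatin genes 22 were expressed, led by the cohesin subunit Smc3 at 378 and 368 TPM (rank 246). The maintenance DNA methyltransferase Dnmt1 measured 22 and 22.5 TPM (rank 4319), Dnmt3a 5.33 and 4.61 TPM (rank 8184) and Dnmt3b 1.5 and 1.52 TPM (rank 9730). Tet3 measured 62.7 and 60.1 TPM (rank 2027) and Tet2 3.43 and 3.78 TPM (rank 8721), while Tet1 had 11 and 6 counts and Dnmt3l none.

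The baseline level of the genes that the other groups overexpress or fuse was also read. All 10 genes of the list of Zfp384 and its leukaemia fusion partners were expressed, between 9.52 and 128 TPM. Zfp384, the mouse counterpart of ZNF384, was the lowest of the 10, with 613 and 536 counts and 9.84 and 9.2 TPM (9.52 ± 0.448 SD, n = 2, rank 6684). Its relative Zfp362 measured 24.1 and 20.2 TPM (rank 4335). Taf15, the RNA-binding fusion partner, measured 24.6 and 24.3 TPM (24.4 ± 0.19 SD, n = 2, rank 4052), and the histone acetyltransferases Ep300 and Crebbp 18.1 and 19.9 TPM (rank 4763) and 83.7 and 80.5 TPM (rank 1541). Ewsr1, a relative of Taf15, was the highest at 127 and 129.8 TPM (rank 935).

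The sequence upstream of the start differed in composition between expressed genes and genes that were not expressed. For each of the 21405 coding genes the 250 bases before the annotated start were read from the mm9 genome. Among the 449 genes of rank 1 to 500 that are not histones, 70.6% had a ratio of observed to expected CpG over 0.6. The share was 67.7% among the other 9453 expressed genes, 31.6% among genes with counts that were not expressed, and 10.1% among genes without counts. Over all coding genes it was 42.7%. The 61 expressed histones had a share of 63.9% with a median G and C content of 43.6%, against 58.4% for the other genes of rank 1 to 500.

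Short motifs were also counted there. TATAAA was sought on the coding strand, starting 40 to 20 bases upstream. It was found in 8 of 61 expressed histones (13.1%) and in 1.78% of the others of rank 1 to 500. The share was 0.688% in the rest of the expressed genes and 5.37% in genes without counts, against 2.41% of all. CANNTG in the 150 bases upstream was found in 33.6% of the non-histone genes of rank 1 to 500, in 38.6% of the rest of the expressed genes and in 53.6% of genes without counts. Histone genes share sequence with each other and are not independent. These shares describe letters in windows, with no test, and an annotated start can differ from the start used in these cells.

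**Figure D4:**
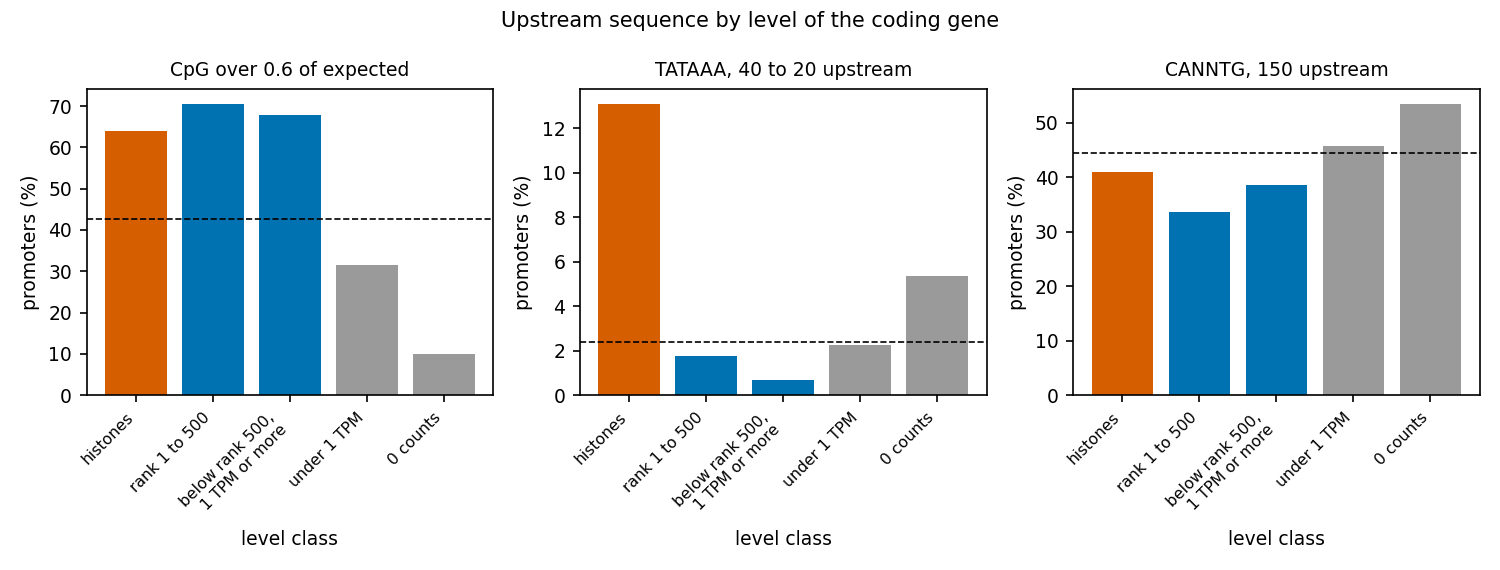
Share of promoters (%) with a CpG ratio over 0.6, with TATAAA and with CANNTG, for expressed histones (orange), other genes of rank 1 to 500 and other expressed genes (blue), and genes under 1 TPM or without counts (grey); dashed lines are all coding genes. The CpG share is 70.6% in the highest non-histone genes, 67.7% in other expressed genes and 10.1% in genes without counts. CANNTG runs the other way, at 33.6%, 38.6% and 53.6%.

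The libraries agreed closely but not to counting noise. Over the 9963 expressed genes Pearson's r of log2 TPM was 0.994 and Spearman's rho 0.995, as descriptions across genes of the same cells. Of the 100 highest genes 94 were shared by both libraries' own rankings. Over 7941 coding genes with a mean of at least 10 CPM, the median size of the log2 difference after TMM scaling (a scaling for library composition) was 0.09 and its 95th percentile 0.34. Per gene, a chi-square of the counts averaged 10.6, so the libraries differed by more than counting noise and were kept as 2 samples. The biological coefficient of variation estimated by edgeR was 0.0699. By a difference over 2-fold, 7 genes (0.0882%) stood apart, 5 of them higher in replicate 2 (0.063%) and 2 lower (0.0252%). Such differences grew common at low counts: with a mean of 1 CPM as the minimum, 109 genes differed over 2-fold. With 1 group there is no test of these differences.

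The genes that differed most included 2 ribosomal proteins and several genes of rapid response. Rps12 had 19710 counts in replicate 1 and 6197 in replicate 2, which was 3.03-fold lower after scaling. Rps13 had 6645 and 2536 counts, 2.49-fold lower, while the gene model Rps13-ps2, named after its values were seen, had 6596 and 7501. Higher in replicate 2 were Egr1 (676 and 1456 counts, 2.26-fold), Hist1h2bq (464 and 990, 2.24-fold), Klf2 (814 and 1613, 2.08-fold) and Fos (761 and 1506, 2.08-fold). The fifth was an unnamed gene model. Below the 2-fold line came Arl4d (205 and 391 counts), Gadd45a (176 and 321) and 1 further gene model without a proper name.

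Gene groups moved together between the libraries. Of 80 ribosomal protein genes with at least 10 CPM, 73 were lower in replicate 2, against 47.8% of all such genes, with a median log2 difference of -0.28. Of 22 immediate early genes, which cells switch on within minutes of a stimulus, 21 were higher in replicate 2, against 52.2% of all, with a median of 0.50. Junb measured 438 and 641 TPM (539.6 ± 144 SD, n = 2, rank 161), Jun 309 and 589 TPM (449 ± 198 SD, n = 2, rank 199) and Dusp2 434 and 510.1 TPM (472 ± 53.8 SD, n = 2, rank 184). Of 17 cholesterol and fatty acid genes 15 were higher, with a median of 0.18. For histones the count was 30 of 57 higher, with a median of 0.02, and for all genes the median was 0.01. Scaling by total coding counts gave medians of -0.25, 0.53 and 0.21 for ribosomal protein, immediate early and cholesterol genes, and DESeq2's size factors gave -0.29, 0.49 and 0.17. The share of counts in the 5 abundant non-coding genes also moved, from 27.2% to 33.2%, and its part in these differences was not tested.

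**Figure D5:**
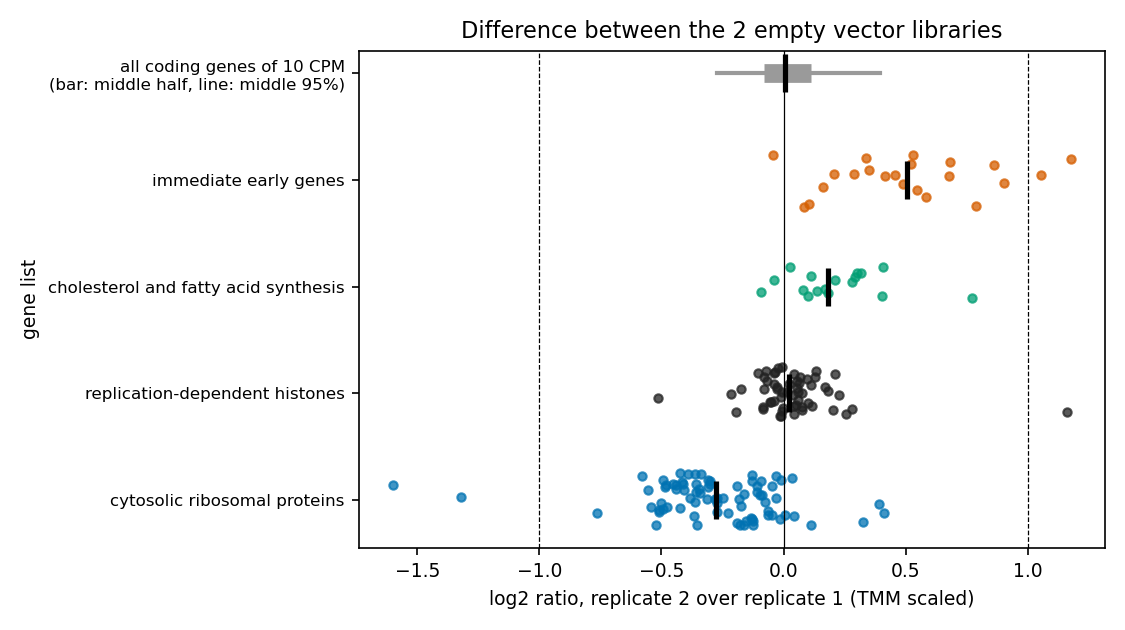
Log2 ratio of replicate 2 over replicate 1 after TMM scaling for coding genes with a mean of at least 10 CPM; each point is a gene, black bars are medians, grey shows all 7941 genes and dashed lines mark 2-fold. Immediate early genes lie to the right (median 0.50), ribosomal proteins to the left (median -0.28) and histones around 0.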

How the data were processed

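Total RNA from GFP+ cells was made into libraries with Illumina's TruSeq Stranded Total RNA kit, per the labels' protocols. The authors deposited whole-number read counts per gene for mm9, made with HTSeq 0.6.1p1, per the submitters' processing notes. The aligner, annotation and strand setting are not given in the sources used here, so reads of overlapping or antisense genes and near-identical copies may be split or lost.

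From the deposited counts of the 2 empty vector libraries (28469291 and 29072409 counts), TPM was computed over 21405 coding genes with the union of exons in GENCODE vM1. Of 32499 symbols, 25621 matched directly and 1427 by a synonym, and 5451 had no match. The unmatched genes held 27.6% and 33.7% of counts, and 1.06% and 0.991% without the abundant non-coding genes. No test was made, since there is 1 group. Fold differences between libraries used the counts after TMM scaling in edgeR 4.0.16, with a pseudocount of 1, and DESeq2 1.42.0 size factors as an alternative. The TPM computation and the TMM scaling were tested on simulated data, and the DESeq2 size factors were not. Floors cover counting error only, and at this depth the exact 95% limits on a library's coding share round to the share itself. Promoter windows of 250 bases counted over all coding genes and coding windows of 50 bases came from the same reference. The printed Igll1 and VpreB windows came from RefSeq.

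The text names Cdkn2a, the 4 markers, the 20 highest coding genes, up to 6 highest and 4 lowest members of each of 41 lists with every member of the lineage and stage lists under 1 TPM, near-identical pairs, the 10 genes that differed most between libraries and the 5 most counted non-coding genes. Other genes named were added for their known role. A few genes that this rule covers are not reported here by name; the counts and medians of their lists include them. The rule, the genes and the lists were chosen with earlier results of these data known. R 4.3.3, Python 3.11.15, pandas 2.3.3, scipy 1.17.1 and matplotlib 3.10.9 were used.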

Additional observations from a re-analysis of the deposited data

How the results depend on the processing

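No paired analysis was possible because the values come from 1 group and no test. The 9963 expressed coding genes became 9850 to 10353 under other lengths, scalings or single libraries, 8018 at 5 TPM and 10650 at 10 counts. The share of coding TPM in the 100 highest genes, 54.0%, was 50.4% with the longest transcript as length, 22.7% with no length correction, 54.0 to 54.1% with either library left out, and 25.6% without histones, a setting chosen after seeing the data. Of the 100 highest genes 62 remained so with no length correction, 90 with the longest transcript and 96 to 98 in a single library. The count of genes over 2-fold between libraries, 7, was 8 with total scaling, 7 with DESeq2, 109 from 1 CPM and 2647 with no filter, where low counts dominate. The median member lay above the 75th percentile of coding genes in 24 of 41 lists, in 24 to 26 under the alternatives that keep every list, and in 23 of the 40 other lists with the histones left out. Glycolysis (73.0 to 77.8) and NF-kB genes (72.6 to 79.1) crossed that line. The coding share of counts was 66.1% on average, 63.3 and 69.0% singly.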
